A study of Mus musculus with 36 samples.

Results

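The genes described here are 8 genes of hepatic glucose production and glucose handling: Pcx, Pck1, Fbp1 and G6pc, which encode the enzymes of the gluconeogenic bypass reactions, Slc37a4 and Slc2a2, which encode sugar carriers, Ppargc1a, which encodes a transcriptional coactivator, and Pklr, which encodes the liver pyruvate kinase. They were chosen by symbol, as rows of the gene count table, out of 54232 genes, and all 8 passed the filter on low counts. The samples came from 12 female C57BL6 mice, 6 of each genotype. HNKO mice carried floxed Nampt alleles and Cre recombinase under the albumin promoter, which is active in hepatocytes. The paper calls the knockout hepatocyte-specific. WT mice were littermates with the same floxed alleles and no Cre. Both genotypes were fed a purified diet with defined amino acids for 3 to 5 weeks, beginning when they were 10 to 12 weeks old. Each mouse gave 3 libraries: a piece of the median lobe taken once blood had been cleared and before collagenase (liver, L), washed cells of the rest of the liver before plating (cell suspension, CS), and cells attached to collagen for 24 h (primary hepatocytes, PH). A comparison of CS or PH with L is therefore also one between parts of the liver. The hepatocyte culture medium that the paper describes held serum, insulin and the glucocorticoid dexamethasone. PH of both genotypes therefore also differed from L and CS in hormone exposure, whose part was not tested. The groups held 6 HNKO L, 5 WT L, 6 HNKO CS, 6 WT CS, 6 HNKO PH and 6 WT PH libraries, because the WT liver of mouse 558 was left out.

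Gluconeogenesis makes glucose from lactate, alanine and glycerol, and in the fasted liver it feeds the blood. Pyruvate carboxylase (Pcx) and the cytosolic phosphoenolpyruvate carboxykinase (Pck1) bypass the pyruvate kinase step, fructose-1,6-bisphosphatase (Fbp1) reverses phosphofructokinase, and glucose-6-phosphatase (G6pc) releases free glucose inside the endoplasmic reticulum, to which SLC37A4 carries the substrate. Glucagon, glucocorticoid and low insulin induce G6pc and Pck1, in part through PGC-1α (Ppargc1a), whereas PKLR runs in the glycolytic direction and GLUT2 (Slc2a2) lets glucose pass the plasma membrane both ways.

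Total counts of the 35 libraries lay between 8698735 and 20350519, and each library had a mean Spearman correlation of 0.939 to 0.961 with the others of its sample type. The excluded liver of mouse 558 had 2547422 counts and a mean correlation of 0.807. Nampt, the deleted gene, was lower in HNKO in each sample type. It averaged 41.0 ± 7.88 CPM in HNKO L and 81.5 ± 25.1 CPM in WT L, and 79.6 ± 7.49 CPM in HNKO PH and 202 ± 22.5 CPM in WT PH (CPM, a library's counts as a share of its TMM-scaled total, SD, n = 6, 5, 6 and 6). The 7 hepatocyte markers (albumin and others) summed to 91610 to 171200 CPM in HNKO L, 155400 to 189700 CPM in WT L, 32040 to 47830 CPM in HNKO PH and 38060 to 60440 CPM in WT PH. In bulk RNA, fewer cells of a type and less RNA per cell cannot be told apart.

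G6pc, Pck1 and Slc2a2 were the members with the largest differences both between PH and L in HNKO and between HNKO and WT in PH, and their promoters are shown for that reason. G6pc lies at chr11:101367561-101377903, Pck1 at chr2:173153048-173159273 and Slc2a2 at chr3:28697903-28731359, all on the plus strand of GRCm38. The stretches are the RefSeq sequence (GRCm38.p6) upstream of the annotated start, 5′ to 3′ on the plus strand, at chr11:101367466-101367560 (95 bases), chr2:173152823-173153047 (225 bases) and chr3:28697653-28697902 (250 bases). Each stretch ends before the earlier of the RefSeq and GENCODE starts, so those of G6pc and Pck1 stop short of the RefSeq start. Capitals mark the letters of the motifs named after the sequences.
G6pc: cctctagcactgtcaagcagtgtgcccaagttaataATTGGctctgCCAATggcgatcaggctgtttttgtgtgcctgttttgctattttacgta
Pck1: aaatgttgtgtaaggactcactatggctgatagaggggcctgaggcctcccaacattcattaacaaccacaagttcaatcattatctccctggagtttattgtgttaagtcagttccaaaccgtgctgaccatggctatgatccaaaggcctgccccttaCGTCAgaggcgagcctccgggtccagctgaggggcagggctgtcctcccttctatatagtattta
Slc2a2: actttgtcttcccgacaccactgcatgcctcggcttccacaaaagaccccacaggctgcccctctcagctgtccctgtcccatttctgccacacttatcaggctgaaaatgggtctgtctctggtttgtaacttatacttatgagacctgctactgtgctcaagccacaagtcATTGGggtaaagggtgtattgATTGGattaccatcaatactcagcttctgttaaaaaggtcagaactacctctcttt

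In G6pc and Slc2a2 the capitals are the CCAAT box, read on either strand (CCAAT or ATTGG), with 2 occurrences in each stretch. In Pck1 they are the core of the cAMP response element, TGACG, on the minus strand (CGTCA). Windows of 300 bases around the start were searched on both strands for these and 5 other motifs, and the 8 genes had 12 such windows. TGACG occurred in 4 of the 12 windows (Pck1, Slc37a4 and Ppargc1a), against 20.8% of all 32851 promoter windows, and CCAAT in 6 of the 12 (G6pc, Fbp1, Pcx, Pklr and Slc2a2), against 37.4%. The Slc37a4 windows at chr9:44396696-44396995 and chr9:44396849-44397148 both held TGACG and overlap, so the 12 windows are not all separate stretches. The TATA letters TATAAA were in 3 of the 12 windows (G6pc, Slc37a4 and Pklr), against 13.6% of all windows. The E box CACGTG was in 1 (Pcx), against 7.15%. In G6pc the TATAAA lies in the part of the window after the stretch shown. The full element TGACGTCA, which holds TGACG, the forkhead core TGTTTAC and the glucocorticoid receptor motif AGAACA were in none of the 12, against 1.79%, 3.65% and 19% of all windows. A missing match says only that these letters are not in this window.

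In the liver the members spanned a wide range of levels. Per kilobase of exon, Fbp1 had the highest mean, 711.5 ± 177 CPM per kb in HNKO L and 853 ± 87.6 CPM per kb in WT L. Pck1 came next, with 372 ± 205 CPM per kb in HNKO L and 578 ± 204 CPM per kb in WT L. Pklr, Pcx, Slc2a2, G6pc and Slc37a4 had means of 60.6 to 220 CPM per kb in HNKO L and 81.5 to 262 CPM per kb in WT L. The coactivator gene Ppargc1a was far below, at 2.46 ± 0.382 and 2.82 ± 1.07 CPM per kb in HNKO L and WT L (SD, n = 6 and 5). In PH the order was another one. Pklr was at the top with 90.4 ± 38.0 CPM per kb in HNKO PH and 81.8 ± 23.6 CPM per kb in WT PH, followed by Pcx, and G6pc in HNKO PH was the lowest of all with 0.263 ± 0.237 CPM per kb (n = 6 each).

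**Figure D1:**
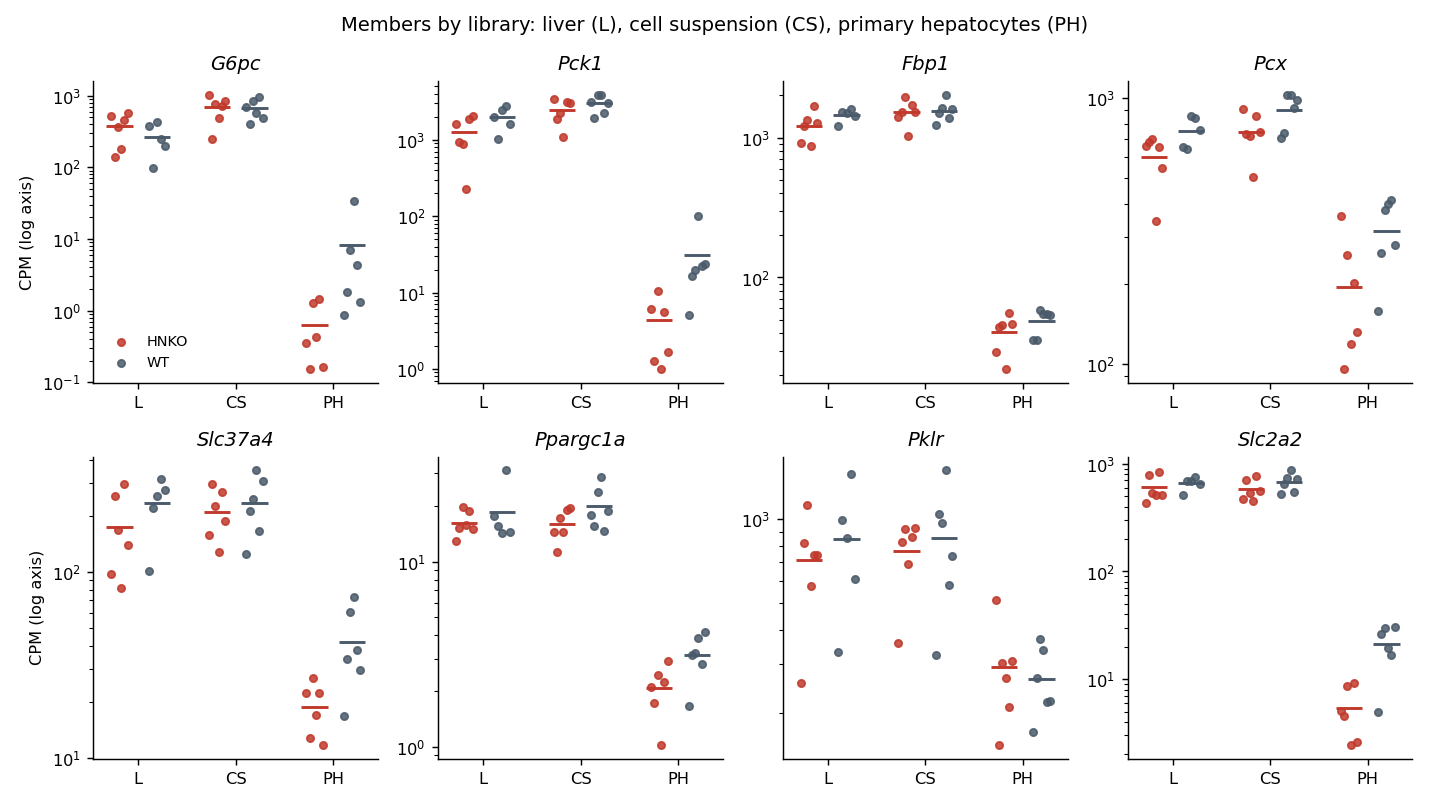
CPM (log axis) of the 8 members in each of the 35 libraries, by sample type and genotype. Points are libraries and horizontal lines are group means. All 8 means are lower in PH than in L, from the HNKO fall of G6pc to 0.636 CPM, against 373 CPM in HNKO L, to that of Pklr to 293 CPM, against 710.5 CPM, and single libraries such as the WT PH library of mouse 556 stand apart.

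Primary hepatocytes were first compared with liver, to see what 24 h of culture left of the programme. All 8 members were lower in PH in both genotypes (edgeR quasi-likelihood test, Benjamini-Hochberg adjusted p under 0.05 over 14932 genes). Of all genes tested, 38.5% were called lower in HNKO and 38.2% in WT, and 76.2% and 75.7% were called in either direction. The members' median log2 fold change was -4.05 in HNKO and -3.73 in WT, against 0.01 over all genes in both. A call of lower in PH was common among genes in general. How far the members fell varied. Counted from the lowest log2 fold change of the 14932 genes, they ranged from rank 12 (G6pc in HNKO) to rank 3557 (Pcx in WT).

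G6pc, the last enzyme of the pathway, fell furthest in HNKO. HNKO PH libraries had 0.151, 0.391 and 1.445 CPM (lowest, median and highest, 2 to 25 counts), against 140, 411 and 578 CPM in HNKO L. The WT PH libraries had 0.874, 3.06 and 34.1 CPM, against 371, 98.5, 425, 246 and 196 CPM in the 5 WT L libraries. No PH library reached the lowest liver library of its genotype. The log2 fold change was -9.16 ± 0.82 (SE) in HNKO and -5.00 ± 0.66 in WT, where the PH library of mouse 556, at 34.1 CPM, lifted the mean. Without mouse 556 the WT value was -6.45, and with the mouse as a block it was -5.70.

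Pck1, which commits oxaloacetate to glucose synthesis, followed G6pc. It had 0.983, 3.60 and 10.5 CPM in HNKO PH (lowest, median, highest), against 229, 1287 and 2072 CPM in HNKO L. WT PH had 5.05, 20.9 and 99.3 CPM, against 2002, 1015, 2488, 2782 and 1620 CPM in the WT L libraries. The highest PH value was again that of WT mouse 556 and the lowest liver value that of HNKO mouse 552, and PH and L did not overlap. The log2 fold changes were -8.20 ± 0.71 in HNKO and -6.00 ± 0.64 in WT, or -6.69 in WT without mouse 556. Slc2a2, the gene of the bidirectional glucose transporter GLUT2, had 2.44, 4.79 and 9.19 CPM in HNKO PH, against 434, 528 and 836 CPM in HNKO L. WT PH had 4.97, 22.8 and 30.6 CPM, against 512, 694, 686, 760 and 652 CPM in WT L. Slc2a2 therefore fell by 6.81 ± 0.37 on the log2 scale in HNKO and by 4.96 ± 0.34 in WT, again with no overlap between PH and L.

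The fall of Fbp1 varied little between mice. Fbp1 (chr13:62864753-62888282, minus strand) fell to 40.4 ± 12.3 CPM in HNKO PH, against 1211 ± 302 CPM in HNKO L, and to 49.0 ± 10.6 CPM in WT PH, against 1452 ± 149 CPM in WT L (SD, n = 6, 6, 6 and 5). Its log2 fold changes of -4.91 and -4.89 were nearly the same in HNKO and WT, and within single mice they lay between -5.42 and -4.66. Slc37a4 (chr9:44396852-44402968, plus strand), whose product supplies G6PC with substrate, had 11.7, 19.6 and 26.9 CPM in HNKO PH (lowest, median, highest), against 81.5, 153 and 298 CPM in HNKO L. WT PH had 16.7, 35.9 and 73.4 CPM, against 101, 219, 256, 315.5 and 273 CPM in WT L. The ranges of PH and L did not overlap, and the log2 fold changes were -3.20 ± 0.36 in HNKO and -2.47 ± 0.35 in WT.

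Ppargc1a, Pcx and Pklr had the smallest log2 fold changes in HNKO, and in WT Pcx and Pklr did, with Slc37a4 (-2.47) and Ppargc1a (-2.57) next to each other. Ppargc1a (chr5:51454250-51567726, minus strand) fell to 2.08 ± 0.645 CPM in HNKO PH, against 16.2 ± 2.52 CPM in HNKO L, and to 3.14 ± 0.876 CPM in WT PH, against 18.55 ± 7.07 CPM in WT L, log2 fold changes of -2.96 and -2.57. Pcx (chr19:4510472-4621752, plus strand), the mitochondrial entry enzyme, had 194 ± 101 CPM in HNKO PH and 599 ± 136 CPM in HNKO L, and 316 ± 100 CPM in WT PH and 753 ± 101 CPM in WT L. Its ranges in PH and L overlapped in HNKO and not in WT, with log2 fold changes of -1.62 and -1.25. Pklr (chr3:89136142-89146784, plus strand), which runs against gluconeogenesis, had 293 ± 123 CPM in HNKO PH and 710.5 ± 285 CPM in HNKO L, and 265 ± 76.3 CPM in WT PH and 848 ± 423 CPM in WT L. The log2 fold changes of Pklr were -1.28 in HNKO and -1.68 in WT, and its ranges overlapped in both genotypes. In HNKO mouse 540 Pklr was higher in PH than in L, at 512 CPM in PH and 258 CPM in L, the single exception among the 8 genes and 11 mice. Pklr shares 711 exon bases with Hcn3 on the opposite strand, and Hcn3 averaged 0.212 to 0.636 CPM in the 6 groups.

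Against the cell suspension the picture was the same. All 8 members were lower in PH than in CS in both genotypes, against 37.6% of genes called lower and 75.7% called in HNKO, and 36.8% and 75.1% in WT. The largest log2 fold changes were those of G6pc, -10.04 ± 0.85 in HNKO and -6.32 ± 0.69 in WT, and of Pck1, -9.15 ± 0.73 and -6.59 ± 0.65. Without mouse 556 the WT values were -7.77 for G6pc and -7.36 for Pck1. Over the 6 group means the members had a simple order. For G6pc, Pck1, Fbp1, Slc37a4, Ppargc1a and Slc2a2 the 4 L and CS groups overlapped with their neighbours in that order, the PH groups overlapped with each other, and the gap lay between them. For Pcx and Pklr all neighbours overlapped. The hepatocyte markers moved with the comparison, since 7 of 7 were lower in PH than in L in both genotypes (median log2 fold change -2.26 in HNKO and -1.82 in WT), as were 5 of 5 pericentral markers in both, and 5 of 5 periportal markers in HNKO and 4 of 5 in WT. Many markers of other cells were lower as well. Lower in both genotypes were 6 of 6 stellate cell and fibroblast markers and 4 of 5 leukocyte markers. Of the 6 endothelial markers 3 were lower in both, and 1 was higher in WT. Of the 5 Kupffer cell and macrophage markers 4 were lower in HNKO and 3 in WT, and 1 was higher in each. Of the 6 cholangiocyte markers 4 were lower in HNKO and 3 in WT, and 1 was higher in each. Not every sum fell. The macrophage median was 244 CPM in WT L and 279 CPM in WT PH, against 236 and 199 CPM in HNKO. The cholangiocyte median was 224 CPM in HNKO L and 247 CPM in HNKO PH, against 52.95 and 38.7 CPM in WT. The part of cell composition in the falls was not tested.

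Isozymes and partners with other tissue patterns moved differently. Pkm, which encodes the pyruvate kinase of most other tissues, had 416 ± 39.5 CPM in HNKO PH and 24.3 ± 6.62 CPM in HNKO L, and 434 ± 119 CPM in WT PH and 15.4 ± 1.28 CPM in WT L, log2 fold changes of 4.10 and 4.81. Slc2a1, the gene of the widely expressed glucose transporter GLUT1, had 128.5 ± 15.7 CPM in HNKO PH and 8.999 ± 1.93 CPM in HNKO L, and 165 ± 39.8 CPM in WT PH and 10.25 ± 2.27 CPM in WT L (3.83 and 4.01). In PH, Pkm and Pklr averaged 83.1 and 90.4 CPM per kb in HNKO and 86.7 and 81.8 CPM per kb in WT, whereas in L they averaged 4.86 and 220 CPM per kb in HNKO and 3.08 and 262 CPM per kb in WT. Pck2, the mitochondrial phosphoenolpyruvate carboxykinase, was higher in PH (14.4 ± 3.11 CPM in HNKO PH and 5.85 ± 1.40 CPM in HNKO L, and 11.2 ± 2.26 CPM in WT PH and 4.17 ± 0.540 CPM in WT L). Fbp2 was also called higher, from at most 4 counts in a liver library. G6pc3, the ubiquitous glucose-6-phosphatase, was not called (log2 fold change 0.06 in HNKO and -0.13 in WT, adjusted p = 0.715 and 0.289).

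**Figure D2:**
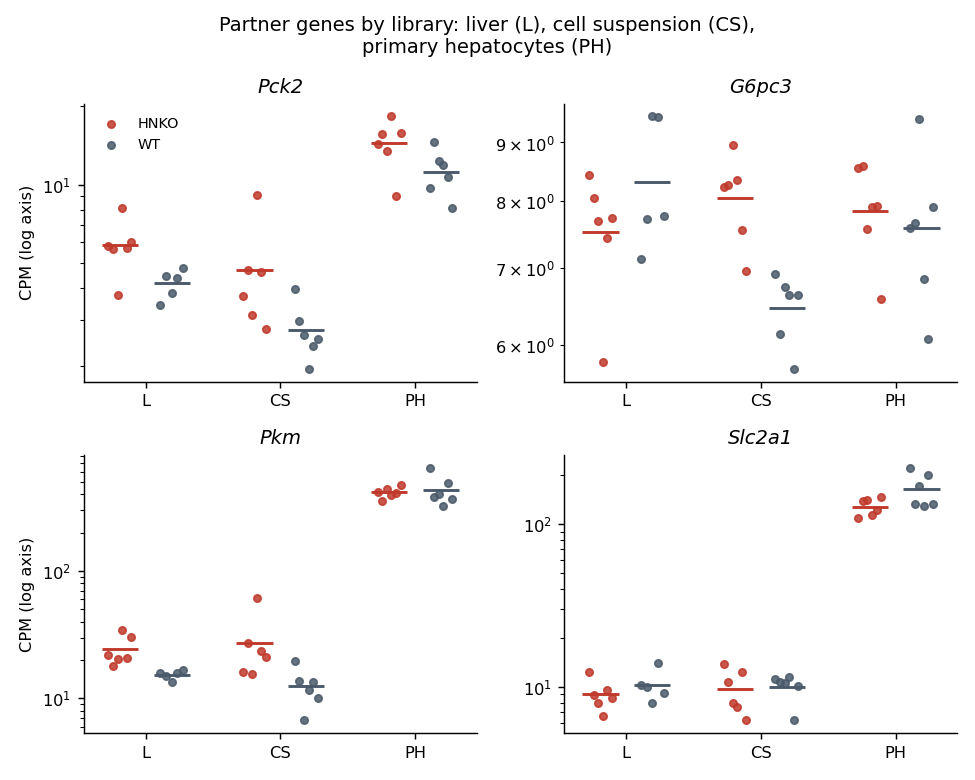
CPM (log axis) of 4 isozyme and partner genes in the 35 libraries. Points are libraries and horizontal lines are group means. Pck2, Pkm and Slc2a1 are higher in PH than in L, and G6pc3 stays between 5.72 and 9.48 CPM in all libraries.

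The comparison of genotypes in the liver asked whether loss of Nampt in hepatocytes changed these genes in vivo. None of the 8 members was called in L by the edgeR quasi-likelihood test, none had an unadjusted p under 0.05 and none was called by DESeq2, and 1.51% of all genes were called. The members' median log2 fold change was -0.26. G6pc had 517, 140, 367, 178, 455 and 578 CPM in the HNKO L libraries, and 371, 98.5, 425, 246 and 196 CPM in the WT L libraries. Pck1 had 1628, 945, 893, 229, 1886 and 2072 CPM in HNKO L, and 2002, 1015, 2488, 2782 and 1620 CPM in WT L. Both genes varied more between mice than between genotypes, and the log2 fold changes were 0.48 ± 0.58 for G6pc (adjusted p = 0.700) and -0.64 ± 0.53 for Pck1 (adjusted p = 0.559). The other 6 members had log2 fold changes of -0.43 (Slc37a4) to -0.13 (Slc2a2), all with overlapping ranges. Cholangiocyte markers were higher in HNKO L (sum 72.1 to 1382 CPM, against 43.4 to 58.5 CPM in WT L, 2 of 6 called), highest in mouse 552. That liver library had the lowest Pck1, Pcx, Fbp1 and Slc37a4, but not the lowest G6pc, Ppargc1a, Pklr or Slc2a2. It also had the lowest total of the liver libraries used (9688267 counts) and the lowest mean correlation of all libraries used (0.939). The part of other cell types in these values was not tested.

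In CS, too, no member was called by edgeR or DESeq2 and none had an unadjusted p under 0.05, beside 0.0268% of all genes called. Log2 fold changes of HNKO over WT ran from -0.31 (Ppargc1a) to 0.04 (G6pc). G6pc averaged 683.5 ± 278 CPM in HNKO CS and 664 ± 213 CPM in WT CS, and Pck1 averaged 2463 ± 891 CPM in HNKO CS and 2998 ± 799 CPM in WT CS (SD, n = 6 each). The SE of the log2 fold change was 0.54 for G6pc and 0.51 for Pck1, and a p above the threshold does not show that the genotypes were alike.

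After culture the genotypes differed. In PH, 4 of the 8 members were lower in HNKO than in WT (G6pc, Pck1, Slc37a4 and Slc2a2), against 7.67% of all genes called lower and 12.8% called in either direction. The median log2 fold change of the members was -0.93, against 0.0 over all genes. G6pc had 0.350, 0.151, 1.27, 0.433, 1.445 and 0.164 CPM in the 6 HNKO PH libraries, and 0.874, 1.84, 7.08, 34.1, 4.28 and 1.32 CPM in the 6 WT PH libraries. All 6 HNKO values were below the WT median of 3.06 CPM, and the ranges overlapped at the HNKO libraries of mice 546 and 562 and the WT libraries of mice 544 and 564. The log2 fold change was -3.68 ± 0.73 (adjusted p = 0.00165), and -2.26 (adjusted p = 0.0208) without mouse 556, whose library alone held 726 counts of G6pc, against 19 in the lowest WT PH library. By log2 fold change G6pc ranked as number 7 from the lowest among the 14932 genes tested.

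Pck1 had 5.999, 1.28, 10.5, 0.983, 5.55 and 1.645 CPM in HNKO PH, and 5.05, 16.3, 19.7, 99.3, 22.2 and 23.4 CPM in WT PH. Only the WT library of mouse 544 fell among the HNKO values. The log2 fold change was -2.84 ± 0.57 (adjusted p = 0.00183), and -1.99 (adjusted p = 0.0157) without mouse 556. Slc2a2 showed the smallest adjusted p of the members. Its HNKO PH libraries had 5.05, 4.52, 8.59, 2.44, 9.19 and 2.63 CPM, and its WT PH libraries had 4.97, 26.1, 29.9, 19.5, 16.7 and 30.6 CPM. WT mouse 544 was again the single WT library within the HNKO range, and the log2 fold change was -1.98 ± 0.31 (adjusted p = 0.000441).

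Slc37a4 differed by less. HNKO PH had 22.3, 12.7, 26.9, 17.0, 22.2 and 11.7 CPM, and WT PH had 16.7, 34.0, 61.0, 73.4, 37.7 and 29.5 CPM. All HNKO libraries were below the WT median of 35.9 CPM, mouse 544 was the lowest WT library, and the log2 fold change was -1.16 ± 0.34 (adjusted p = 0.0220). This call was lost on leaving out mouse 542, 554, 556 or 566 (adjusted p = 0.0572, 0.0848, 0.0813 and 0.0667). Pcx and Ppargc1a had log2 fold changes of -0.70 ± 0.24 and -0.59 ± 0.24 with adjusted p = 0.0520 and 0.0941. Pcx passed the threshold without mouse 540, 544 or 546 (0.00835, 0.00974 and 0.0376) and Ppargc1a without mouse 544 (0.0241). Fbp1 (-0.28, adjusted p = 0.347) and Pklr (0.14, adjusted p = 0.817) were not called. With only the PH groups in the fit, none of the 4 calls held (adjusted p = 0.0537 to 0.0632, log2 fold changes -3.66 to -1.15), and 3 genes of all were called.

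**Figure D3:**
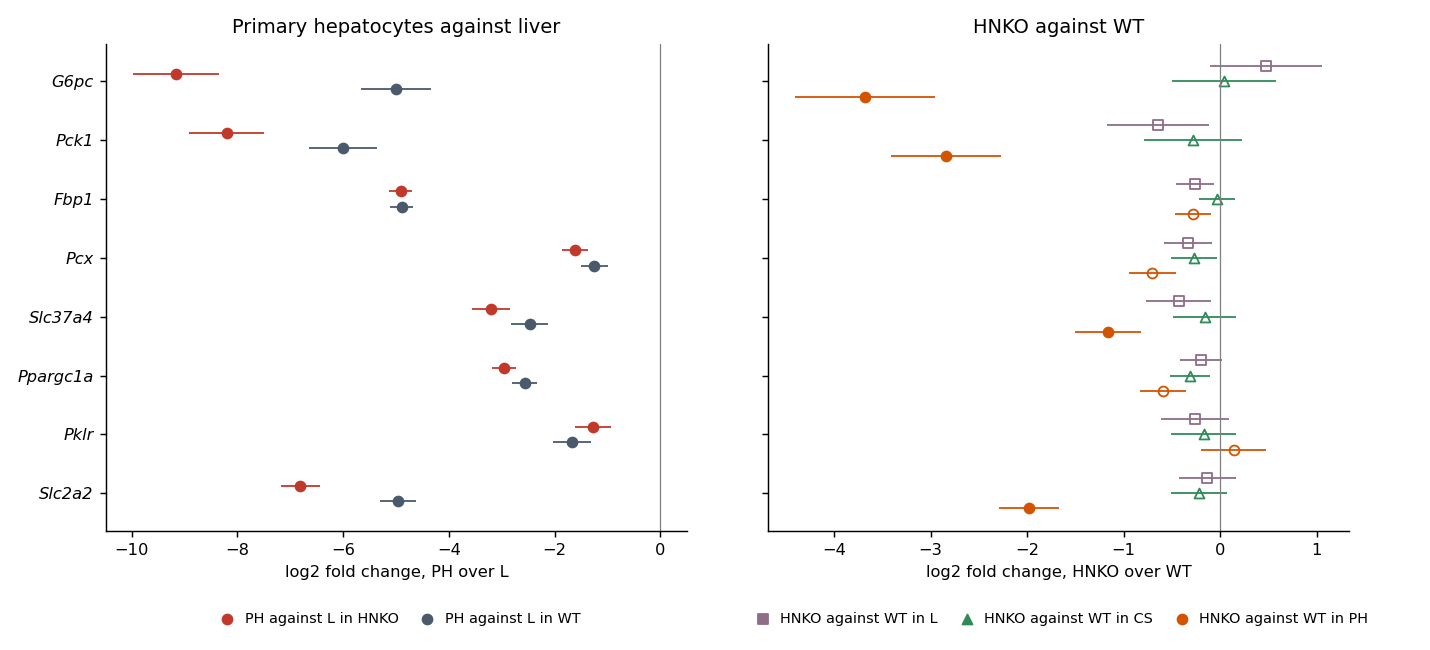
Log2 fold changes of the 8 members with 1 SE, PH over L in each genotype (left) and HNKO over WT in each sample type (right). Filled symbols passed an adjusted p of 0.05 and open symbols did not. All PH over L values are filled, the HNKO over WT values in L and CS are all open, and in PH G6pc (-3.68), Pck1 (-2.84), Slc2a2 (-1.98) and Slc37a4 (-1.16) are filled.

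Other genes moved with genotype in PH. The hepatocyte marker sum had a median of 38070 CPM in HNKO PH and 56150 CPM in WT PH, and 4 of its 7 genes were called lower (median log2 fold change -0.51). Of the periportal markers, 3 of 5 were lower, with sums of 178 to 505 CPM in HNKO PH and 311 to 1132 CPM in WT PH, and of the pericentral markers 2 of 5 were lower, with sums of 287 to 735 CPM in HNKO PH and 616 to 1166 CPM in WT PH. Of the stellate cell and fibroblast markers, 3 of 6 were higher, with sums of 73.9 to 330 CPM in HNKO PH and 41.3 to 222 CPM in WT PH. The WT library of mouse 544, which lay within the HNKO range for G6pc, Pck1, Slc37a4 and Slc2a2, had the lowest hepatocyte sum (38060 CPM) and the highest stellate cell and cholangiocyte sums (222 and 218 CPM) of WT PH. Without mouse 544 as many as 6 members were called, and the calls over all genes rose from 1913 to 3793. The part of these markers in the genotype difference was not tested.

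Whether the genotype difference was itself larger in PH than in L was tested as an interaction. It was for 2 members, G6pc (log2 difference -4.16 ± 0.94, adjusted p = 0.0250) and Slc2a2 (-1.85 ± 0.43, adjusted p = 0.0289), beside 0.971% of genes called lower and 1.58% called in all. Pck1 had -2.20 ± 0.77 (adjusted p = 0.121). G6pc was no longer called without mouse 540, 548, 552, 554, 556, 564 or 566 (adjusted p = 0.0549 to 0.0962, value without mouse 556 -2.71), and Slc2a2 without mouse 542, 548, 552, 554, 556, 558, 564 or 566 (0.0510 to 0.0971). With the WT liver of mouse 558 kept, Slc2a2 had -2.09 (adjusted p = 0.0577). With only the L and PH groups fitted the values were -4.17 and -1.85 (adjusted p = 0.0715 and 0.0811). Between PH and CS no member was called by edgeR, beside 0.221% of all genes. At an unadjusted p under 0.05 were 4 members, beside 2116 of all 14932 genes. DESeq2 called 3 members, and its count over all genes is given with the other settings below. The edgeR estimates between PH and CS were -3.72 for G6pc, -2.55 for Pck1 and -1.76 for Slc2a2 (adjusted p = 0.0601, 0.103 and 0.0585). With the mouse as a block Pck1 (-2.40, adjusted p = 0.0386) and Slc2a2 (-1.73, adjusted p = 0.0183) passed. Without mouse 544 all 3 passed (adjusted p = 0.0105, 0.0296 and 0.00321), and the calls over all genes rose from 33 to 647. Without mouse 546 G6pc and Slc2a2 passed (0.0486 and 0.0270). Between CS and L no interaction was called for a member or for any gene (0%), by edgeR or by DESeq2, with 0 members and 673 genes at an unadjusted p under 0.05.

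The step from liver to cell suspension left most members near their liver level. No member was called in either genotype, beside 5.37% of all genes in HNKO and 3.5% in WT. In HNKO none had an unadjusted p under 0.05, and in WT 1 had (G6pc), beside 2320 of all 14932 genes. DESeq2 called no member. G6pc was nevertheless higher in CS than in L in every mouse, by 0.56 to 1.43 on the log2 scale in the 6 HNKO mice and by 0.91 to 2.04 in the 5 WT mice. The group comparison gave 0.88 ± 0.55 in HNKO (adjusted p = 0.444) and 1.31 ± 0.59 in WT (adjusted p = 0.263), and the WT value was called when only the groups compared were fitted (1.32, adjusted p = 0.0397). Pck1 was also higher in CS in 6 of 6 HNKO mice (0.53 to 2.25) and 5 of 5 WT mice (0.46 to 0.92), and so was Pcx (0.03 to 0.55 and 0.11 to 0.36). Blocked by mouse, these remained above the threshold (adjusted p = 0.0702 for Pck1 and 0.196 for G6pc in HNKO, and 0.361 and 0.0960 in WT). Fbp1 in HNKO was called under the block only (0.35, adjusted p = 0.0442). Slc2a2 lay within 0.2 of its liver level in all mice.

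The differences between mice in L came back in CS. Deviations from the group mean of the same mouse in L and CS (11 mice) were correlated for each member, as were those in CS and PH (12 mice), 16 relations in all, chosen after the values had been seen. Permutation within genotype was used for p and adjusted p is over the 16. For G6pc, Pearson's r between L and CS was 0.91 (adjusted permutation p = 0.001) and Spearman's rho 0.94 (adjusted p = 0.0018), and r was 0.90 without the 2 mice farthest from the median. Pck1 had r = 0.96 (adjusted p = 0.0024), rho = 0.93 (0.0082) and r = 0.88 without mice 552 and 548. For Slc37a4 these were 0.96 (0.00096), 0.95 (0.0011) and 0.90, for Pklr 0.96 (0.001), 0.86 (0.01) and 0.90, and for Slc2a2 0.91 (0.0037), 0.83 (0.011) and 0.88. Fbp1 had 0.79 (0.013), 0.86 (0.0088) and 0.75. Pcx reached r = 0.85 (0.017) with rho = 0.50 (0.20) and 0.60 without mice 552 and 548. Ppargc1a was the exception, with r = 0.58 (0.13), rho = 0.33 (0.39) and r = 0.19 without mice 546 and 556. Over all 14932 genes the median r was 0.39.

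**Figure D4:**
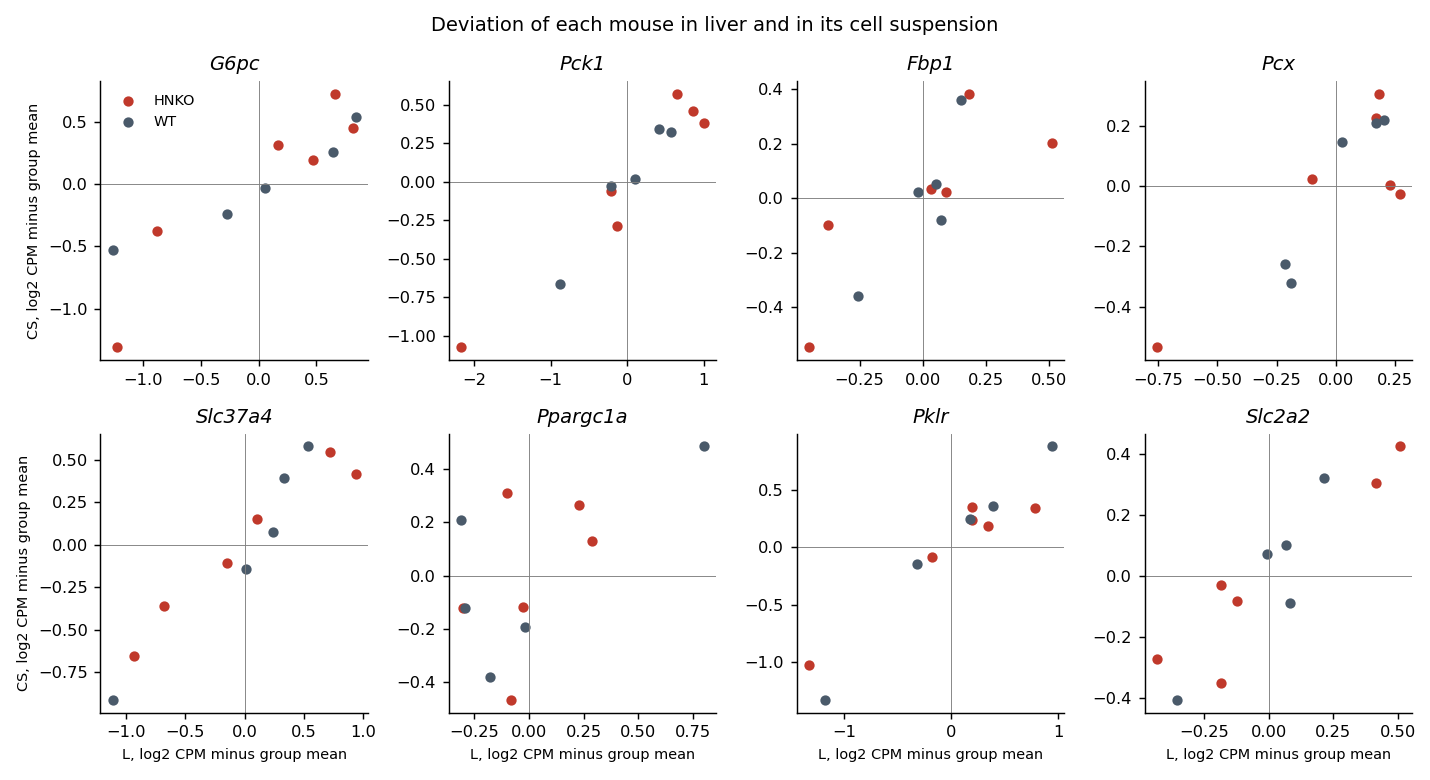
Deviation of log2 CPM from the group mean in liver (x axis) and in the cell suspension (y axis) of the same mouse, for the 8 members and 11 mice. Points rise along the diagonal for G6pc (r = 0.91), Pck1 (0.96), Slc37a4 (0.96), Pklr (0.96) and Slc2a2 (0.91), and scatter for Ppargc1a (0.58).

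Between CS and PH all 8 r values were above the median over all genes, 0.09, and the difference from the relations between L and CS was not tested. Over 12 mice r was 0.78 for Fbp1 (adjusted permutation p = 0.013, rho 0.74 with 0.024, and 0.67 without mice 552 and 556) and 0.68 for Pcx (0.04, rho 0.64 with 0.075, and 0.52 without mice 552 and 544). It was 0.25 for G6pc (0.43), 0.47 for Pck1 (0.18), 0.46 for Slc37a4 (0.20), 0.11 for Pklr (0.73), 0.59 for Slc2a2 (0.09) and 0.48 for Ppargc1a (0.18, rho 0.72 with 0.031). The rho values of G6pc, Pck1, Slc37a4, Pklr and Slc2a2 were 0.27, 0.47, 0.35, 0.38 and 0.66 (adjusted p = 0.39, 0.20, 0.35, 0.29 and 0.059), and r without the 2 farthest mice was -0.03, 0.30, 0.17, 0.49 and 0.57.

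The pathway around the members was followed with 5 lists of 97 other genes, all of them tested. In PH, HNKO against WT, 28 were lower and 1 was higher, beside 7.67% of all genes called lower and 12.8% called. Among the control genes 10 of 26 were lower, including Gcgr, the glucagon receptor (9.27 ± 4.27 CPM in HNKO PH and 20.7 ± 7.98 CPM in WT PH, log2 fold change -1.16), Hnf4a, a hepatocyte transcription factor (258 ± 62.5 and 399.5 ± 93.5 CPM, -0.63), Foxo1, which insulin keeps out of the nucleus (-0.57), and Tat, tyrosine aminotransferase (-2.08). Of 24 genes of glucose uptake and glycolysis 6 were lower, among them Pdk2, a kinase that inhibits pyruvate dehydrogenase (18.2 ± 10.7 CPM in HNKO PH and 45.4 ± 19.5 CPM in WT PH, -1.32, adjusted p = 0.006705), and Pfkl, the liver phosphofructokinase (-0.46). Of the 10 reversible enzymes 4 were lower, such as Aldoa (-0.64) and Tpi1 (-0.31). Of the 20 gluconeogenic enzyme and transport genes 3 were lower, both pyruvate carriers Mpc1 (-0.74) and Mpc2 (-1.14) and the serine dehydratase Sds (-1.53). Of the 17 glycogen genes 5 were lower, among them Ugp2, which makes UDP-glucose (-2.02), Ppp1r3b (-1.25) and Gbe1 (-0.79), and Pygb, the brain glycogen phosphorylase, was higher (0.66). The median over the 97 was -0.36, against 0.0 over all genes, and none of these calls held with only the PH groups fitted. Leaving out mouse 542, 554, 558 or 566 gave 18, 17, 16 and 17 lower. Of the genes named, Mpc2 and Tat were not called without mouse 556. Sds lost its call without mouse 540, 542, 548, 554, 556, 558, 564 or 566, Tpi1 without 542, 548, 552, 554, 556, 558, 562, 564 or 566, and Pygb without 542, 554, 556, 558 or 564.

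In L 1 of the 97 was called by edgeR, Pygb, at 14.6 ± 4.81 CPM in HNKO L and 7.46 ± 0.905 CPM in WT L (0.97, adjusted p = 0.0228), beside 1.51% of all genes. At an unadjusted p under 0.05 were 26 of the 97, beside 2573 of all 14932 genes. DESeq2 called 2 higher and 4 lower, and its counts over all genes are given with the other settings below. Pygb was not called in L without mouse 548, 554, 556, 564 or 566. Without mouse 562 the calls were 2 higher and 5 lower, beside 505 over all genes. In CS edgeR called 0, beside 0.0268% of all genes, and DESeq2 called 2. At an unadjusted p under 0.05 were 11 of the 97, beside 2135 of all 14932 genes. The interaction between PH and L was called for Slc25a11 (0.59, higher), Pfkp (-1.49) and Ugp2 (-1.86), beside 1.58% of all genes. These calls held in 7, 6 and 9 of 20 alternative settings. All 3 were lost with all 36 libraries, with only the groups compared and without mouse 542, 548, 552, 554, 556, 558, 564 or 566, Slc25a11 also without 540 or 546, Pfkp without 540 and Ugp2 without 562. In PH against L, 30 of the 97 were higher and 56 lower in HNKO, and 31 higher and 51 lower in WT, beside 38.5% and 38.2% of all genes called lower and 76.2% and 75.7% called. Differences between the lists were not tested. Of the reversible enzymes 7 of 10 were higher in both genotypes, such as Tpi1, Aldoa and Pgam1 (1.31, 2.18 and 1.93 in HNKO, and 1.38, 2.63 and 2.04 in WT), and 2 were lower. Of the 20 gluconeogenic enzyme and transport genes 4 were higher in both genotypes (Mdh2, Ldha, Fbp2 and Pck2) and 14 were lower. Among the lower ones were Aqp9, a glycerol channel (-4.04 in HNKO and -3.83 in WT), and Mdh1 (-2.66 and -2.99). Of the 24 uptake and glycolysis genes 7 were higher and 16 lower in HNKO, and 8 higher and 14 lower in WT. Of the glycogen genes 11 of 17 in HNKO and 9 in WT were lower, with Gys2, the liver glycogen synthase, at -6.51 and -5.68, and 3 in each were higher. Of the control genes 13 of 26 in HNKO and 12 in WT were lower, among them Gcgr (-4.65 and -3.86), and 9 in each were higher.

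In CS against L, 5 of the 97 genes were higher and 1 lower in HNKO, and 4 higher in WT, shares near the 5.37% and 3.5% of all genes called. The 4 genes called in WT were control genes that were also called higher in HNKO. Igfbp1, an insulin-repressed gene, had 317 ± 167.5 CPM in HNKO CS and 85.2 ± 48.8 CPM in HNKO L, and 243 ± 137 CPM in WT CS and 50.5 ± 25.0 CPM in WT L. Irs2, an adaptor of the insulin receptor, had log2 fold changes of 1.46 in HNKO and 1.64 in WT, Sik1, a kinase gene induced by cAMP, 1.62 and 1.67, and Cebpb 1.18 and 1.01. Cebpb in WT was not called without mouse 544, 548, 554, 556 or 564, nor Igfbp1 without 548 in WT or without 540 or 546 in HNKO. In HNKO the glycogen-targeting subunit Ppp1r3g was also higher (2.6) and Pfkfb4 lower (-1.23), the call of Pfkfb4 being lost without mouse 540, 542, 546, 554, 562 or 566.

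For each member the genes with the most similar profile over the 6 group means were listed, measured as the root mean square difference of centred mean log2 CPM over 9179 genes. The nearest to G6pc was Pck1 (0.42), and to Pck1 it was G6pc (0.42), followed for both by Cyp8b1 (0.47 and 0.48). The nearest to Fbp1 was Otc (0.08), to Pcx Adhfe1 (0.09), to Slc37a4 Gpt (0.05), to Ppargc1a Srr (0.04), to Pklr Pitpnc1 (0.03) and to Slc2a2 Sdr9c7 (0.14). The median difference of all genes was 3.99 for G6pc and 0.84 for Pklr, so that the same value is a closer match for the first. All these profiles share the difference between PH and the other samples.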

How the data were processed

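RNA was rRNA-depleted and made into stranded total RNA libraries, and 51-bp paired-end reads were sequenced. Per the labels the authors used STAR 2.7.2b (the methods name another version for this experiment) on GRCm38 and featureCounts 1.6.4, and deposited raw counts of fragments per gene. Whether counting used strand is not given in the sources used here. Gene IDs were matched without their version to GENCODE M21 (67 of 54232 have no symbol there). The groups come from the sample titles, and within a group each library is a separate mouse. The WT liver of mouse 558 was left out for its low total count and correlation.

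The counts were fitted with edgeR 4.0.16 (R 4.3.3): filterByExpr with a minimum count of 10, TMM, 6 group coefficients over 35 libraries, quasi-likelihood F tests for 12 contrasts, two-sided, with Benjamini-Hochberg adjustment over 14932 genes and a threshold of 0.05. SE is the log2 fold change over the root of F. Log2 CPM used a prior count of 2. The fit was tested on simulated data. Alternatives were DESeq2 1.42.0, its size factors, upper quartile scaling, no filter, all 36 libraries, only the groups compared, the newer quasi-likelihood fit, a mouse block and leaving out each mouse.

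The mouse number in the titles joins the 3 libraries of an animal. Deviations from group means correlated with a median of 0.324 between L and CS of the same mouse and -0.0234 between different mice (CS with PH 0.156 and -0.00091, L with PH 0.101 and -0.0162). Named genes were the 8 members in every contrast, Nampt, isozyme or partner genes, up to 4 genes with the smallest p per list and contrast, and the 3 nearest profiles of each member among genes averaging at least 10 CPM in a group. Marker genes were summed, and Hnf4a and Sds each stand in a marker list and in a pathway list. The members, lists and markers were chosen with earlier results of these data known. Promoter windows run from 250 bases before to 50 after a RefSeq start. No amino acid sequences were used here. Some genes that the rule names are not reported here.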

Additional observations from a re-analysis of the deposited data

Results flagged for a closer look

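Among the 48 combinations of member and group, 4 held a library far from the others of its group (a gap to the nearest library above Dixon's 95% critical value), and chance gives about 1 in 20. Pcx in HNKO L was lowest in mouse 552, at 8.43 on the log2 CPM scale (345 CPM, others 544 to 704 CPM). Ppargc1a in WT L was highest in mouse 556, at 4.96 (31.0 CPM, others 14.2 to 17.5 CPM). Pklr in HNKO CS was lowest in mouse 540, at 8.49 (358.5 CPM, others 690 to 929 CPM). Slc2a2 in WT PH was lowest in mouse 544, at 2.35 (4.97 CPM, others 16.7 to 30.6 CPM). The genotype effect differed between PH and L for G6pc (log2 difference -4.16) and Slc2a2 (-1.85) by the interaction test of edgeR.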

How the results depend on the processing

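Under settings other than leaving out a mouse, 717 of 744 member values kept their direction and their side of the threshold, 7 lost the threshold, 11 gained it and 9 changed sign. With 1 mouse left out, 1096 of 1152 kept both, 19 lost it, 9 gained it and 28 changed sign. With only the groups compared in the fit, 0 members were called for HNKO against WT in PH, 1 for CS against L in WT (G6pc) and 0 for the interaction between PH and L. The mouse as a replicate block gave 1 call for CS against L in HNKO and 2 for the interaction between PH and CS, and changed no other count of members, while the genotype comparisons cannot be blocked because each mouse has 1 genotype. Keeping all 36 libraries gave 1 call in the interaction between PH and L. For the interaction between PH and CS, no filter gave 1 call (Slc2a2, -1.80, adjusted p = 0.0414) and DESeq2 gave 3. Leaving out 1 mouse gave 3 to 6 members for HNKO against WT in PH, 0 to 2 for the interaction between PH and L and 0 to 3 for that between PH and CS.

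Signs changed only for uncalled values. With all 36 libraries HNKO against WT in L was 0.0 for Ppargc1a and 0.11 for Slc2a2, and the interaction between CS and L was -0.07 for Pklr. With no filter HNKO against WT in CS was 0.0 for Fbp1, and CS against L in WT was -0.0 for Slc37a4. With upper quartile scaling CS against L in WT was -0.05 for Slc37a4, -0.04 for Pklr and -0.02 for Slc2a2, and the interaction between PH and L was 0.01 for Fbp1. With 1 mouse left out, HNKO against WT ran from -0.28 to 0.06 in L for Ppargc1a, from -0.46 to 0.03 in L, -0.34 to 0.07 in CS and -0.09 to 0.27 in PH for Pklr, and in CS from -0.11 to 0.21 for G6pc and -0.11 to 0.06 for Fbp1. CS against L ran in WT from -0.05 to 0.09 for Slc37a4, -0.04 to 0.22 for Ppargc1a and -0.04 to 0.11 for Pklr, and in HNKO from -0.11 to 0.04 for Ppargc1a. The interactions ran from -0.24 to 0.02 for Ppargc1a and -0.0 to 0.2 for Pklr between CS and L, from -0.11 to 0.03 for Fbp1 and -0.01 to 0.58 for Pklr between PH and L, and from -0.07 to 0.47 for Pklr between PH and CS.

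Over all genes, 225 were called for HNKO against WT in L, against 544 with DESeq2, 741 with all 36 libraries and 386 with the newer fit. In CS 4 were called, against 9 with no filter, 233 with DESeq2, 0 with only the groups compared and 9 with the newer fit. In PH 1913 were called, against 1242 with no filter, 811 with all 36 libraries and 3 with only the groups compared. For CS against L in HNKO 802 were called, against 504, 443 and 1233 with all 36 libraries, only the groups compared and the block. For the interaction between PH and L 236 were called, against 109 with no filter, 660 with DESeq2, 82 with all 36 libraries, 9 with only the groups compared and 378 with the block. For that between PH and CS 33 were called, against 295, 3, 8 and 197 with DESeq2, all 36 libraries, only the groups compared and the block. Leaving out 1 mouse moved these counts to between 29 (mouse 548) and 505 (562) for HNKO against WT in L, 2 (564) and 595 (544) in CS, and 855 (554) and 3793 (544) in PH. It gave 8 (554) to 1005 (544) for the interaction between PH and L, 5 (554 or 558) to 647 (544) for that between PH and CS, 526 to 967 for CS against L in HNKO and 300 to 691 in WT, where 522 were called over all mice. The shares of all genes called move with these counts. The cause of these shifts was not tested. G6pc had as few as 2 counts in an HNKO PH library, which limits the precision of its fold changes.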

Other observations

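The WT liver of mouse 558, left out of all comparisons, had 56.9 CPM of G6pc, 188 CPM of Pck1, 550.0 CPM of Fbp1, 573 CPM of Pcx, 94.6 CPM of Slc37a4, 234 CPM of Pklr and 49.85 CPM of Slc2a2, without TMM scaling, and 0 counts of Ppargc1a among its 2547422 counts.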
